A study of Mus musculus with 2 samples.

Results

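Dynein arms are the motors of motile cilia. The set described here holds the genes of dynein arm subunits, of their docking and of their assembly in the cytoplasm. It was chosen by gene symbol: all Dnah, Dnaic, Dnal, Dnaaf, Dynlrb, Dynll and Dynlt genes, Dnali1, and 9 further genes that dock, space or assemble the arms. This gave 44 symbols among 54674 genes listed in either table, of which 43 are in both tables. Of these, 33 are called arm-specific below. The other members are 9 light chains that cytoplasmic dynein also uses, the RNA Dnah2os, and the pseudogene Dynlt1-ps1, which only the P4 table lists. Dnah2os (chromosome 11, 69448548 to 69453676, plus strand) lies within Dnah2 on the opposite strand, and neither it nor the pseudogene encodes a subunit.

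The cells are sorted oviduct epithelium of C57BL/6 mice, profiled as 1 single-cell RNA library from adults in the estrus stage and 1 library of mice labelled P4, which in common use is postnatal day 4. The sort used antibodies against Epcam, an epithelial surface protein, and CD45, a leukocyte antigen. How many animals were pooled is not given in the sources used here, and no treatment or genotype is named. The adult table held 406 distinct barcodes (median 3232 UMI, unique molecular identifiers, per cell) and the P4 library gave 263 (median 7585), with 0 barcodes in common.

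In a motile cilium, the outer arms set the force and beat frequency and the inner arms shape the bend. Each arm is built from heavy chains, which are the motors, with intermediate and light chains. The arms are put together in the cytoplasm by dedicated factors and are then fixed to the microtubule doublets by docking proteins. In the oviduct, multiciliated cells carry such cilia and move the egg and fluid, while secretory cells do not carry them.

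Levels are pooled UMI of a gene per 10000 UMI of a group of cells, with exact 95% Poisson intervals. Ratios are ratios of levels with exact conditional intervals, and all intervals cover counting error only. A gene counted as measured in a comparison when at least 10% of cells on either side held a UMI, and as called when the ratio was at least 2 in either direction. A side with 0 counts was set to 3 counts over the group, so such a ratio is a bound. Each age is 1 library and cells are not replicates, so no p-value was computed and no value has a replicate check. The libraries count 3' ends and levels are not divided by gene length, so genes are compared across cells and not with each other. The clusters are the authors' and were made from expression, so differences between them describe the clusters. Adult clusters 1 and 3 are called multiciliated-like and clusters 0 and 4 secretory-like. The markers were high under these names. A list of 15 multiciliated markers, none of them a member, summed to 140.9 UMI per 10000 in the multiciliated-like cells and 2.96 in the secretory-like cells. Of 8 secretory markers the sums were 18.1 and 207.0. Ptprc, which encodes CD45, had 0 UMI in both libraries, and doublets were not called.

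In the adult library, the arm-specific genes were carried by the multiciliated-like cells. Summed, they reached 37.9 per 10000 in cluster 1 (36.3 to 39.5, 183 cells) and 21.8 in cluster 3 (19.2 to 24.5, 37 cells). They reached 1.31 in cluster 0 (1.01 to 1.66, 130 cells) and 1.15 in cluster 4 (0.461 to 2.36, 31 cells). Cluster 5 stood between at 3.66 (2.63 to 4.96, 25 cells). Its secretory markers summed to 98.5 per 10000 (cell median 71.4) and its smooth muscle markers to 60.8 (cell median 0). There, 8 of 25 cells held an arm-specific UMI, and 2 cells at or above 30 multiciliated marker UMI per 10000 held 27 of the 41 UMI. Over the whole set, 34 of 37 measured members were called higher and 0 lower, against 28.7% and 13.7% of 5184 measured genes. The median log2 ratio was 3.65 over measured members and 0.30 over all measured genes. Of the 37, 29 passed the 10% minimum in the multiciliated-like cells alone, among them all 28 measured arm-specific genes but Dnal4. The minimum thus favours genes that are high there, so these counts, the median and the counts by role below are descriptions and no support.

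**Figure D1:**
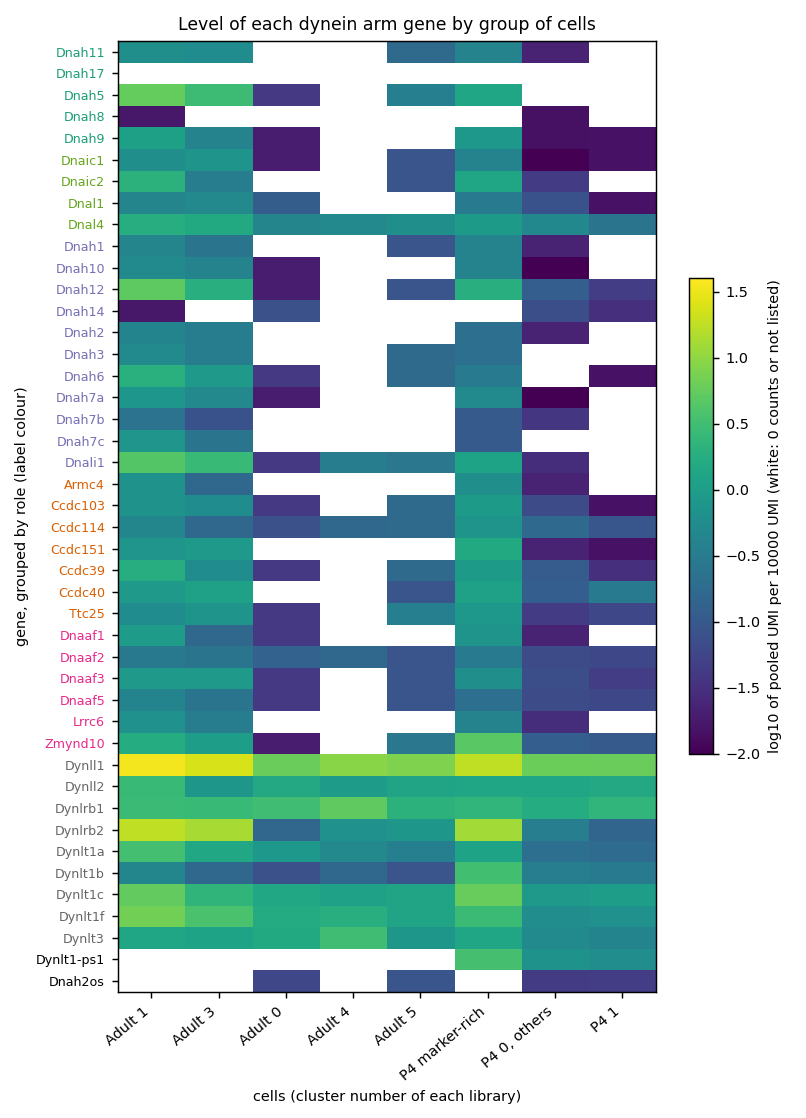
Level of each of the 44 genes (rows, grouped by role through the label colour) in the groups of cells (columns), as log10 of pooled UMI per 10000; white marks 0 counts or a gene that the table does not list. Most arm-specific genes are bright in adult clusters 1 and 3 and in the P4 marker-rich cells, but Dnah8, Dnah14 and Dnah17 have few or no counts there. Dynll1, Dynll2, Dynlrb1 and Dynlt3 are present in every group.

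Dynlrb2 and Dynlrb1 encode the roadblock light chains, which hold dynein complexes together, and they went different ways. Dynlrb2 stood at 17.8 per 10000 in cluster 1 (16.7 to 18.9), 13.4 in cluster 3, 0.156 in cluster 0, 0.655 in cluster 4 (4 counts in 1 cell) and 0.803 in cluster 5. A UMI of it was found in 95% of 220 multiciliated-like cells and in 5.59% of 161 secretory-like cells, at median depths of 3194.5 and 3221 UMI. Its ratio between them was 81.4 (46.4 to 158). Dynlrb1 stood at 2.89, 2.68, 3.14, 5.24 and 2.05 per 10000 in clusters 1, 3, 0, 4 and 5. Its ratio was 0.848 (0.693 to 1.04), so it was near the same level in both kinds of cell.

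The promoter windows of these 2 genes and of 3 arm genes that carry the results below are printed here, since the set was high in the same cells. They run from 250 bases before to 50 bases after the RefSeq start, on build GRCm38.p6 (the mm10 assembly). Capitals mark matches to 3 motifs on either strand. One is the RFX half-site GTTGCC, which reads GGCAAC on the other strand. Another is the X-box, made of the half-site and, 0 to 3 bases on, its reverse complement, with at most 2 mismatches in all. The third is the forkhead core TGTTTA, which reads TAAACA on the other strand. The RFX family and the forkhead factor FOXJ1 are known for motile cilium genes, and half-site matches can lie within an X-box match.
Dynlrb2 (chr8:116504765-116505064, plus strand): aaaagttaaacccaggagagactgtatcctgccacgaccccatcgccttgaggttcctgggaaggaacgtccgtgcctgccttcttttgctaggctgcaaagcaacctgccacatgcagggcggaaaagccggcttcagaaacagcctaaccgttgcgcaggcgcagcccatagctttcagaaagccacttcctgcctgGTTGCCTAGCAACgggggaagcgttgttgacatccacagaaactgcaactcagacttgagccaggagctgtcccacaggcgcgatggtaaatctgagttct
Dynlrb1 (chr2:155236283-155236582, plus strand): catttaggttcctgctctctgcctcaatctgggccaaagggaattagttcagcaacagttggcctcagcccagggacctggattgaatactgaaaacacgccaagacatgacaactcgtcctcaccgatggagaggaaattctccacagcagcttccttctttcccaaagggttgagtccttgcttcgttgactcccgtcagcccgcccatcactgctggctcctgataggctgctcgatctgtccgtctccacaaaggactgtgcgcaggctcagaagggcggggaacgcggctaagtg
Dnaic2 (chr11:114727169-114727468, plus strand): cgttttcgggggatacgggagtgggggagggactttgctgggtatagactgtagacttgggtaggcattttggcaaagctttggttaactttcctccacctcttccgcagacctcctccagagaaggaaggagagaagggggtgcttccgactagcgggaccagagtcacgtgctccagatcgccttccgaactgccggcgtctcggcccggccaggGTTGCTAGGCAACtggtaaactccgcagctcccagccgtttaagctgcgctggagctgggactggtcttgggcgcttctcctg
Dnah5 (chr15:28203516-28203815, plus strand): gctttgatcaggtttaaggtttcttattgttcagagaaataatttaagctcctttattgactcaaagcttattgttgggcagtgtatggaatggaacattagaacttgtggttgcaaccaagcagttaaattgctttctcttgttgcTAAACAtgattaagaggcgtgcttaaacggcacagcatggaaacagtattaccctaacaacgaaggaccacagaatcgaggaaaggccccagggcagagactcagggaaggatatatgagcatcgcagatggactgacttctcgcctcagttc
Zmynd10 (chr9:107547054-107547353, plus strand): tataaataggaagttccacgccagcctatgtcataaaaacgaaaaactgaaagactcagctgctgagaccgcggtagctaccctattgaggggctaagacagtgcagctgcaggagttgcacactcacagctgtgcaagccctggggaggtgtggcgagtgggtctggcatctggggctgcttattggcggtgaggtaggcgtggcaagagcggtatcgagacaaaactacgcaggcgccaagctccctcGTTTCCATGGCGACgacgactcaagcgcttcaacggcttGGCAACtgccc

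Positions are counted from the RefSeq start. The GENCODE M21 start lies upstream of it by 41 bases for Dynlrb2, 14 for Dnah5, 11 for Dnaic2 and 6 for Zmynd10. The Dynlrb2 window holds an X-box match with 1 mismatch that begins 51 bases before the RefSeq start and 10 before the GENCODE start, and the Dynlrb1 window has no match to any of the 3. Dynlrb1 has a second RefSeq window, which has none either. The Dnaic2 window holds an X-box match with 1 mismatch, 33 bases before the RefSeq start, and Ccdc103 holds the same 13 letters. The Dnah5 window has a forkhead match and no X-box match. RefSeq promoter windows were found for 34 of the 44 genes. An X-box match was present in 11 of 28 arm-specific windows (39.3%) and in 6.37% of 32851 windows of all genes. The half-site was present in 32.1% and 12.5%, and the forkhead core in 25% and 13.4%. Of 7 shared light chain windows, 2 (28.6%) held an X-box match, those of Dynlrb2 and Dynll1. Windows of the Dnah7a, Dnah7b and Dnah7c copies hold the same X-box match, so they are not separate cases. A match is a string of letters and was not tested as a binding site.

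The outer arm heavy chains were led by Dnah5 (chromosome 15, 28203752 to 28472052, plus strand), a motor of the outer arm whose loss is a known cause of primary ciliary dyskinesia. Dnah5 had 5.57 per 10000 in cluster 1, 2.92 in cluster 3, 0.0390 in cluster 0 (2 counts), 0 counts in cluster 4 and 0.357 in cluster 5. The multiciliated-like cells thus stood at 5.11 and the secretory-like cells at 0.0348, a ratio of 147 (40.3 to 1217). Dnah9, another outer arm motor, stood at 0.992 and 0.0174, a ratio of 56.9 (9.90 to 2281) with 1 secretory-like count. Dnah11, the motor paired with Dnah5 near the base of the cilium, had 44 counts and 0, so its level was at least 11.8-fold higher. Dnah8 had 1 count and Dnah17 none, and both are best known from the sperm tail. Neither of them was measured. With 0 counts in 220 cells, the level of Dnah17 was not detectable above 0.0419 per 10000, which is what 3 counts would give.

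The intermediate chains, which tie the outer arm to the doublet, followed the heavy chains. Dnaic2 (chromosome 11, 114727408 to 114757889, plus strand) had 125 counts in multiciliated-like cells (1.75 per 10000) and 0 in secretory-like cells, at least 33.4-fold higher. Dnaic1 stood at 0.643 and 0.0174, a ratio of 36.9 (6.30 to 1489). The light chains were less one-sided. Dnal4 stood at 1.73 and 0.436, a ratio of 3.98 (2.57 to 6.38), and 14.3% of secretory-like cells carried at least 1 of its UMI. Dnal1 stood at 0.447 and 0.105, a ratio of 4.28 (1.76 to 12.5). The intervals of Dnal4 and Dnal1 do not reach those of Dnah5 or Dynlrb2, so the size of the ratio differed among these members. The source of the secretory-like counts was not tested.

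Among inner arm genes, Dnah12 and Dnali1 had the most counts. Dnah12, an inner arm heavy chain, stood at 4.51 per 10000 against 0.0174, a ratio of 259 (46.2 to 10264) with 1 secretory-like count. Dnali1, an inner arm light intermediate chain, stood at 4.02 against 0.0697, a ratio of 57.8 (22.3 to 213). Dnah6 followed at 1.76 against 0.0348 (50.5, 13.7 to 422). Dnah7a had 0.727 against 0.0174 (41.7, 7.16 to 1679) and Dnah10 0.503 against 0.0174 (28.9, 4.86 to 1172). No count was found in secretory-like cells for Dnah1, Dnah2, Dnah3 and Dnah7c, which had 29, 29, 35 and 47 counts in multiciliated-like cells. Their levels were at least 7.75-, 7.75-, 9.36- and 12.6-fold higher. Dnah7b, with 15 counts against 0, was under the 10% minimum of cells. Dnah14 had 1 count against 4 and Dnah2os 0 against 3, and they were not measured. The Dnah7 copies share sequence: 33.5% to 66.5% of the 50-base words in the last 300 bases of their longest transcripts occur in another copy, so how reads were split between them is uncertain. Summed, the copies stood at 1.59 against 0.0174.

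Ccdc39 and Ccdc40 form the ruler that sets the spacing of inner arms and other structures along the doublet. Ccdc39 stood at 1.55 against 0.0348 (44.5, 12.0 to 372), and Ccdc40 had 65 counts against 0 (at least 17.4-fold higher). Of the docking genes of the outer arm, Ccdc151 had 56 counts against 0 (at least 15.0-fold) and Armc4 44 against 0 (at least 11.8-fold). Ttc25, also a docking gene, stood at 0.587 against 0.0348 (16.8, 4.38 to 144). Ccdc103, which helps arms attach, stood at 0.685 against 0.0348 (19.7, 5.16 to 167). Ccdc114, a docking complex gene, was the least one-sided, with 0.405 against 0.0871 (4.65, 1.78 to 15.4).

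Of 6 assembly factors, 5 were measured. Zmynd10 (chromosome 9, 107547298 to 107551319, plus strand), which works with chaperones on the heavy chains, stood at 1.58 against 0.0174 (90.6, 15.9 to 3611). Dnaaf3 stood at 0.880 against 0.0348 (25.3, 6.71 to 213), Dnaaf1 at 0.824 against 0.0348 (23.7, 6.27 to 200) and Dnaaf5 at 0.391 against 0.0348 (11.2, 2.83 to 97.3). Lrrc6, a partner of Zmynd10, had 43 counts against 0 (at least 11.5-fold). Dnaaf2 stood at 0.279 against 0.139 and was under the 10% minimum of cells.

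The light chains that cytoplasmic dynein also uses were present in both kinds of cell. Dynll1, an LC8 light chain that also binds many other proteins, had the most counts of the set. It stood at 33.9, 24.2, 6.04, 9.0 and 7.94 per 10000 in clusters 1, 3, 0, 4 and 5, and its ratio between multiciliated-like and secretory-like cells was 5.07 (4.54 to 5.68). Its paralog Dynll2 stood at 2.36 against 1.45 (1.63, 1.25 to 2.15), under the 2-fold limit. Dynlt3, a Tctex-type light chain, stood at 1.30 against 1.71 (0.761, 0.567 to 1.02). The Dynlt1 copies all stood higher: Dynlt1f had 6.32 against 1.64 (3.86), Dynlt1c 4.88 against 1.39 (3.50), Dynlt1a 3.03 against 0.784 (3.87) and Dynlt1b 0.405 against 0.0871 (4.65). These copies lie together on chromosome 17. By the same measure, 100% of the last words of Dynlt1b, 90.4% of Dynlt1f, 64.1% of Dynlt1c and 0% of Dynlt1a occur in another copy. The longest transcript of Dynlt1a has 3321 bases, against 771 for Dynlt1b and Dynlt1f, and the ends of other transcripts were not checked. How reads were split among the copies is thus uncertain, for Dynlt1a as well. The sum of the 4 copies was 14.6 against 3.90, a ratio of 3.75 (3.24 to 4.35). Within both the roadblock and the LC8 pair, 1 gene was called higher in multiciliated-like cells and its paralog was not, and these pairs share 0% of their last words.

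**Figure D2:**
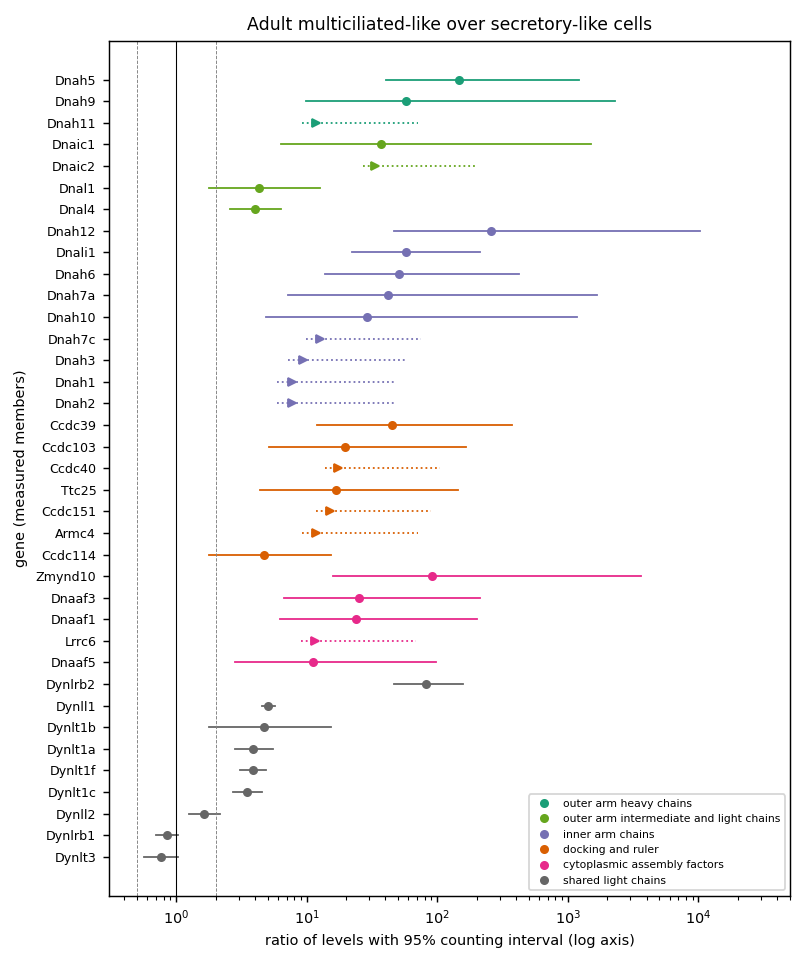
Ratio of levels in adult multiciliated-like over secretory-like cells (log axis) for the 37 measured members, coloured by role, with 95% counting intervals; a triangle is a lower bound against 3 counts and its dotted line has no upper limit, and dashed lines mark 2-fold. The 28 measured arm-specific genes lie right of the 2-fold line, while Dynll2, Dynlrb1 and Dynlt3 lie within 2-fold.

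The limits of this comparison are of depth. With a minimum of 25% of cells, 14 of 17 measured members were higher. The share of all genes under that minimum is not given here, so this count is a description. With cells thinned to 1000 UMI, 15 of 18 were higher and Dynlt3 was lower, against 32.3% and 18.1% of the genes measured then. Per cell, the summed arm-specific level ran from 0 to 119 per 10000 in cluster 1, with a median of 35.2. It ran from 0 to 12.3 in cluster 0 and from 0 to 32.6 in cluster 4, with a median of 0 in each, so the ranges of single cells overlapped. In cluster 4, 2 cells at or above 30 multiciliated marker UMI per 10000 held 2 of its 7 arm-specific UMI. Of 161 secretory-like cells, 51 held an arm-specific UMI, and none of them held more than 3. At 1000 UMI per cell, the median number of arm-specific genes with a UMI was 3 in cluster 1 (42 shallower cells left out), 2 in cluster 3 (8 left out) and 0 in cluster 0 (18 left out). Before thinning, these medians were 9, 3 and 0.

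**Figure D3:**
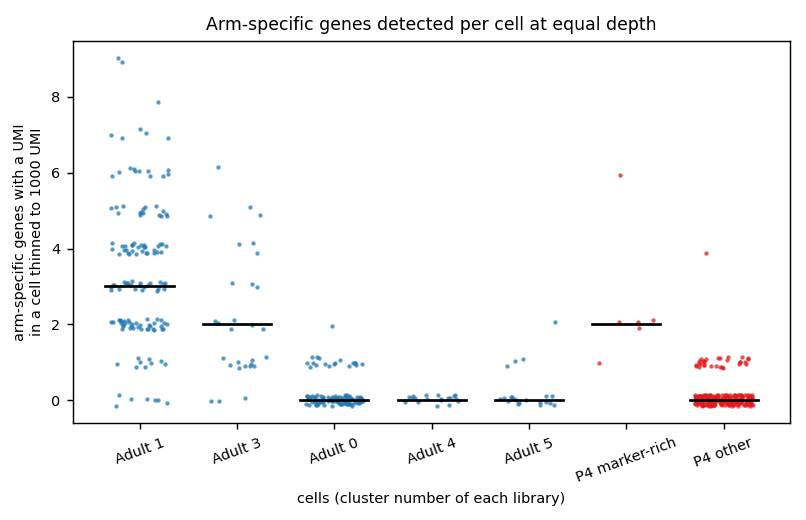
Number of arm-specific genes with a UMI in each cell thinned to 1000 UMI (points, spread sideways and slightly up or down for visibility), by adult cluster and for P4 marker-rich and other P4 cells; black bars are medians. The medians are 3 in adult cluster 1, 2 in adult cluster 3, 2 in the P4 marker-rich cells and 0 in the other groups.

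Other dynein genes were counted under the same 10% minimum, which favours genes that are high in the multiciliated-like cells. Their counts, here and in the comparisons below, are thus descriptions and no support. The share of all measured genes called higher was the 28.7% given above. Of 12 measured cytoplasmic dynein and dynactin genes, which move cargo in all cells, 0 were higher and 1 was lower. That was Dync1i1, an intermediate chain, at 0.196 against 0.679 (0.288, 0.144 to 0.542), while the heavy chain gene Dync1h1 stood at 0.419 against 0.331. All 5 genes of dynein 2, the motor of transport back along the cilium, were higher: Dync2li1 12.4-fold, Wdr60 9.63-fold, Dync2h1 8.96-fold, Wdr34 6.23-fold and Tctex1d2 5.84-fold. All 8 measured genes of the nexin-dynein regulatory complex, which links doublets and governs the arms, were higher. By count these were led by Iqcg (1.52 against 0.0174), Drc1 (86 counts against 0), Gas8 (0.824 against 0.209), Ccdc65 (59 counts against 0), Tcte1 (0.755 against 0.0348) and Iqcd (0.601 against 0.0697). Of 7 measured further assembly genes, 6 were higher. They were 1110004E09Rik (6.86-fold), Ruvbl2 (6.79-fold), Pih1d2 (12.8-fold), Ruvbl1 (3.96-fold), Dnajb13 (69.8-fold) and Dyx1c1 (23.3-fold). Ruvbl1 and Ruvbl2 are ATPases of the R2TP co-chaperone, which serves many complexes. Foxj1, the regulator of motile cilia, stood at 8.09 per 10000 in cluster 1, 5.03 in cluster 3 and 0.175 in cluster 0.

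Within the multiciliated-like cells, cluster 3 had less of the set than cluster 1. The arm-specific sum was 0.574 of that in cluster 1 (0.504 to 0.652). Of 37 measured members, 14 were called lower and 0 higher, against 11.9% and 16.0% of 5483 measured genes. The median log2 ratio was -0.69 over the members and 0.02 over all measured genes. Of the 37, 8 passed the 10% minimum in cluster 1 alone, among them Armc4, Ccdc114, Dnaaf1, Dnah7c and Dynlt1b, which were called lower. The minimum thus favours genes that are lower in cluster 3, so the count and the median are descriptions and no support. Of the 14, 10 had an interval that excluded 1, a count given without the share of all genes. In the same cells the multiciliated markers stood at 103.5 against 148.7, the secretory markers at 28.7 against 15.9 and the epithelial markers at 50.1 against 24.0. Of the 15 multiciliated markers, 4 were lower and Sec14l3 had 0 counts in cluster 3 against 140 in cluster 1. Median depth was 3657 and 3165 UMI, and the part of these differences in the result was not tested.

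The size of the difference varied by gene. Dnaic2 stood at 0.325 per 10000 in cluster 3 and 2.04 in cluster 1 (0.159, 0.0426 to 0.418). Dnaaf1 stood at 0.162 and 0.962 (0.169, 0.0200 to 0.638), and Armc4 at 0.162 and 0.709 (0.229, 0.0269 to 0.880), each with 2 counts in cluster 3. Dynll2 stood at 0.812 and 2.68 (0.302, 0.142 to 0.571) and Ccdc39 at 0.568 and 1.76 (0.324, 0.127 to 0.691). Of the heavy chains, Dnah12 had 1.87 and 5.06 (0.369, 0.230 to 0.564), Dnah9 0.406 and 1.11 (0.364, 0.115 to 0.894) and Dnah6 0.893 and 1.94 (0.460, 0.223 to 0.854). The Dynlt1 copies summed to 7.63 and 16.1 (0.474, 0.380 to 0.587), with Dynlt1a at 0.435 and Dynlt1c at 0.420 of cluster 1. Ccdc114 (0.356), Dnah7c (0.328), Dynlt1b (0.356) and Lrrc6 (0.493) were also called, with intervals that held 1.

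Other members stood closer to cluster 1. Dnah5 had 0.525 of its level (0.361 to 0.741), Dynlt1f 0.545, Zmynd10 0.625, Dnali1 0.644, Dynll1 0.713 and Dynlrb2 0.754 (0.636 to 0.889). Dnal4 had 0.870 (0.504 to 1.43) and Dynlrb1 0.928 (0.619 to 1.35). Ratios above 1 were found for Ccdc40 (1.32, 0.675 to 2.42), Ttc25 (1.31), Ccdc151 (1.18), Dnaic1 (1.17), Dnal1 (1.11) and Dnaaf3 (1.02), all with intervals that held 1. The interval of Dnaic2 lies below that of Dnaic1 (0.497 to 2.47), its partner in the outer arm, and the interval of Dynll2 lies below that of Dynll1 (0.630 to 0.806). Of the remaining heavy chains, the ratio was 0.555 for Dnah1, 0.770 for Dnah2, 0.621 for Dnah3, 0.627 for Dnah7a, 0.776 for Dnah10 and 0.910 for Dnah11. It was 0.802 for Ccdc103, 0.577 for Dnaaf5 and 0.925 for Dynlt3. Dnaaf2, Dnah7b, Dnah8, Dnah14, Dnah17 and Dnah2os were not measured. Of the other dynein genes, the 5 of dynein 2 were all within 2-fold. In the nexin-dynein complex, Tcte1 (0.406 and 0.827), Iqcd (0.162 and 0.692) and Drc7 (0.162 and 0.574) were lower in cluster 3, and Fbxl13 was higher (0.812 and 0.270). Of 11 cytoplasmic dynein genes 2 were higher, among them Ndel1 (1.14 and 0.506), and of 7 further assembly genes 1 was lower, Pih1d1 (0.162 and 0.726).

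**Figure D4:**
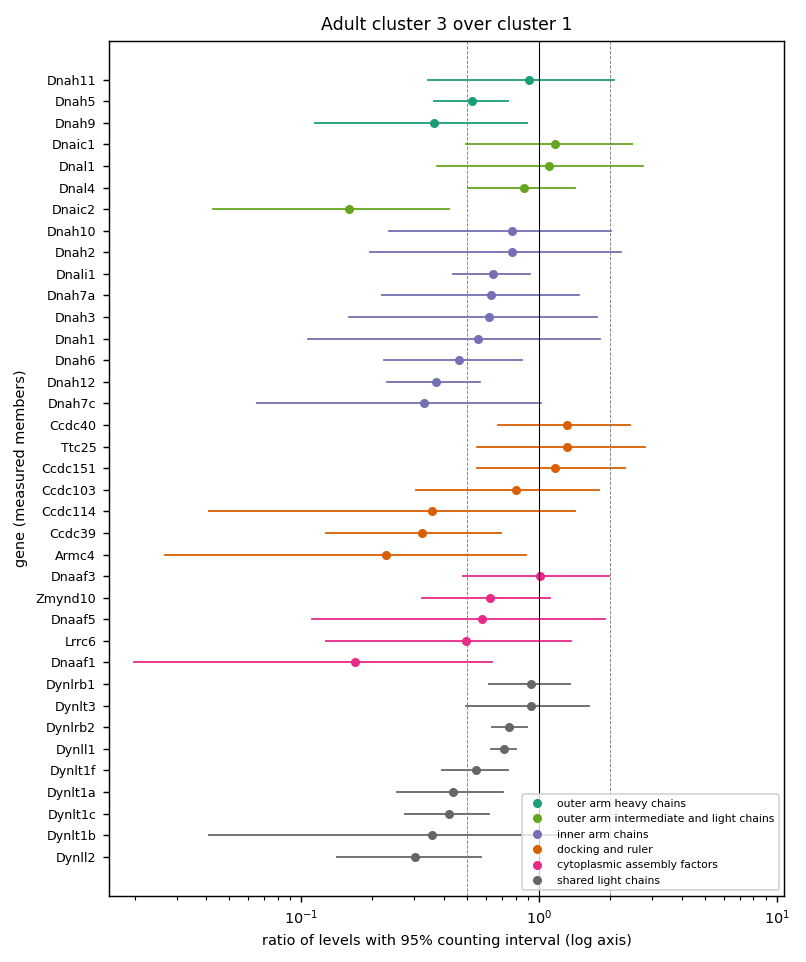
Ratio of levels in adult cluster 3 over cluster 1 (log axis) for the 37 measured members, coloured by role, with 95% counting intervals; dashed lines mark 2-fold. Points fall on both sides of 1, with Dnaic2 at 0.159 farthest to the left and Ccdc40 at 1.32 farthest to the right.

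The count of 14 fell to 6 with a pseudocount of 0.5, to 8 with a minimum of 25% of cells and to 8 with thinned cells. In none of these was a member higher. The shares of all genes at these settings are not given here, so these counts are descriptions. In the authors' clusters of both libraries merged, cluster 3 was split. Merged cluster 0 held 17 of its cells (median 1086 UMI) and merged cluster 6 held 19 (median 4784 UMI). The 21 adult cells of merged cluster 6 had an arm-specific sum of 23.3 (20.4 to 26.5), against 38.8 (37.2 to 40.5) in the 197 adult cells of merged cluster 0. There Dnaic2 stood at 0.595 against 2.01, Ccdc39 at 0.496 against 1.78, Dynll2 at 0.596 against 2.73 and Zmynd10 at 1.49 against 1.73.

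At P4, 165 of 263 cells held an arm-specific UMI, and the pooled levels were low. The arm-specific sum was 3.41 per 10000 in P4 cluster 0 (3.12 to 3.72, 168 cells) and 1.16 in P4 cluster 1 (0.917 to 1.45, 95 cells). Of 14 measured members, 4 were called higher in cluster 0 and 0 lower, against 5.73% and 4.66% of 8721 measured genes. The median log2 ratio was 0.51 over the members and 0.02 over all measured genes. Of the 14, 2 passed the 10% minimum in cluster 0 alone, Zmynd10 and Ccdc114, and both were called. The count of 4 and the median are thus descriptions and no support. Dynlrb2 stood at 1.17 and 0.151 (7.76, 4.12 to 16.5) and Zmynd10 at 0.424 and 0.106 (4.02, 1.84 to 10.4). Dnal4 stood at 0.507 and 0.241 (2.10, 1.21 to 3.86) and Ccdc114 at 0.205 and 0.0906 (2.27, 0.929 to 6.67). Of the other shared light chains, Dynll1 stood at 6.89 and 5.95, Dynll2 at 1.30 and 1.48, Dynlrb1 at 1.76 and 2.37, and Dynlt3 at 0.582 and 0.423. The Dynlt1 copies, with the pseudogene, summed to 3.59 and 2.75, with Dynlt1a at 0.274 and 0.181, Dynlt1b at 0.534 and 0.317, Dynlt1c at 1.18 and 0.996, Dynlt1f at 0.733 and 0.664, and Dynlt1-ps1 at 0.869 and 0.589. Ccdc40 stood at 0.185 and 0.302 (0.612, 0.331 to 1.15). Members under the 10% minimum included Dnah12 (34 counts and 3), Ccdc39 (24 counts and 2) and Dnah2os (6 and 3). The others under it had 0 to 19 counts in cluster 0 and 0 to 4 in cluster 1. Of the other dynein genes, Wdr34 of dynein 2 (0.582 and 0.287) and Pih1d2 (0.171 and 0.0755) were higher in cluster 0. Thinned to 1000 UMI, 4 members were measured, 0 were called and the ratio of Dnal4 was 0.565. The share of all genes called after thinning is not given here.

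Much of the difference between the P4 clusters lay in 6 cells. These are the P4 cells with at least 30 UMI per 10000 of the 15 multiciliated markers, a range of a score and not a cell type. All 6 were in cluster 0, their marker levels ran from 46.6 to 129, and the next cell stood at 22.7. Without them, the arm-specific sum of P4 cluster 0 was 1.90, still above the 1.16 of cluster 1, and the calls were Dynlrb2 higher and Ccdc40 lower, and the ratio of Zmynd10 was 1.11. They held 4.57% of P4 UMI and 41.6% of the arm-specific UMI (239 of 575). They also held 68.5% of Dynlrb2 UMI, 66.7% of Zmynd10 UMI and all 13 UMI of Dnah5. Their median depth was 18605.5 UMI, against 7458 in the other 257 cells, and the part of depth or of doublets was not tested. Their precursor markers, genes such as Ccno and Deup1 of cells that are making cilia, summed to 20.9 per 10000 against 1.22, their secretory markers to 4.12 against 5.63, and their epithelial markers to 35.4 against 27.8. Leukocyte markers summed to 2.16 against 0.725, where 1 of 5 genes, Cd74, gave all the counts of the 6 cells. Foxj1, 1 of the 15 markers by which these cells were chosen, stood at 7.73 per 10000 in the 6 cells.

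In these 6 cells, 38 of 40 measured members were called higher than in the other P4 cells and 0 lower, against 33.9% and 8.91% of 12092 measured genes. The median log2 ratio was 3.80 over the members and 0.38 over all measured genes. With 6 cells, 1 cell with a UMI passes the 10% minimum, so some calls rest on 1 or 2 counts. Of the 40, 28 passed it in the 6 cells alone, so the minimum favours genes that are high there, and the count of 38 and the median are descriptions and no support. With the further demand that the interval excludes 1, 33 were higher, a count given without the share of all genes. Dynlrb2 stood at 12.8 per 10000 in the 6 cells and 0.281 in the others (45.4, 32.9 to 63.3). Zmynd10 stood at 4.74 and 0.114 (41.8, 24.8 to 72.2). Dynll1 stood at 17.9 and 6.05 (2.96, 2.51 to 3.48), and Dynlt1c, Dynlt1b and Dynlt1f were 6.39-, 9.52- and 4.75-fold higher. Dynlt1-ps1 was 5.18-fold higher, and it shares all its last words with a Dynlt1 copy. Dynlrb1 (2.37 and 1.93, ratio 1.23, 0.770 to 1.87) and Dynll2 (1.34 and 1.36, ratio 0.987, 0.519 to 1.72) were within 2-fold.

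The members with fewer counts are given by their counts in the 6 cells and the others. Dnah5 had 13 and 0, at least 90.5-fold higher. Dnah12 had 18 and 19 (19.8, 9.79 to 39.8), Ccdc151 15 and 4 (78.3, 25 to 324), Dnaic2 13 and 6 (45.3, 16.0 to 145) and Dnali1 12 and 4 (62.7, 19 to 267). Dnal4 had 9 and 81, a ratio of 2.32 (1.02 to 4.63). Ccdc40 had 11 and 36 (6.38-fold), Ccdc114 7 and 29 (5.04-fold), Dynlt1a 12 and 40 (6.27-fold) and Dynlt3 13 and 100 (2.72-fold). The other called members had 1 to 9 counts in the 6 cells and 0 to 17 in the others. Dnah8, Dnah14 and Dnah2os had 0 counts in the 6 cells, and 2, 12 and 9 in the others, and Dnah17 had none in either.

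Cell by cell, in order of falling marker level, the 6 cells held 23, 35, 25, 24, 6 and 11 UMI of Dynlrb2. For Zmynd10 they held 3, 6, 11, 12, 4 and 10. Both genes were thus present in each of the 6 cells. Dnah5 was held at 8, 3, 0, 1, 1 and 0 UMI, so 1 cell carried 8 of its 13. Arm-specific genes with a UMI numbered 25, 18, 17, 16, 13 and 17 per cell. Their arm-specific levels ran from 16.8 to 64.1 per 10000, and the cell with the most markers had the highest. The highest of the other 257 P4 cells stood at 26.7, above 5 of the 6, so the ranges overlapped. In the merged clusters, all 6 lay in merged cluster 0, where 14 P4 cells had an arm-specific sum of 21.7 (19.1 to 24.5). The 6 cells held 239 of the 257 arm-specific UMI of those 14, and 9 of the 14 held any.

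Of the other dynein genes at P4, to be read against the 33.9% and 8.91% above, 0 of 14 cytoplasmic dynein and dynactin genes were higher in the 6 cells. There, 3 were lower, each with 1 count: Dctn1, Dync1i1 and Nde1. A UMI in 1 of the 6 cells passes the minimum, so the counts of called genes here are descriptions and no support. All 5 dynein 2 genes were higher, led by Tctex1d2 (3.40 against 0.410, 8.30-fold), as were 8 of 8 nexin-dynein genes, among them Gas8 (0.618 against 0.192) and Iqcg (1.44 against 0.0395). Of 10 further assembly genes, 8 were higher. Ruvbl2 stood at 3.81 against 0.479 (7.97-fold), 1110004E09Rik at 3.50 against 0.666 (5.26-fold) and Ruvbl1 at 2.99 against 0.503 (5.94-fold).

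The adult multiciliated-like cells and the 6 P4 cells were then compared on the 26897 genes of both tables. Age, library, sort, depth and gene annotation cannot be told apart in this comparison. Of 39 measured members, 7 were higher in the adult cells and 3 lower, against 14.0% and 34.9% of 9685 measured genes. The median log2 ratio was 0.37 over the members and -0.39 over all measured genes. The arm-specific sum was 35.8 in the adult cells and 27.7 at P4 (1.29, 1.13 to 1.48). Multiciliated markers stood at 143.6 and 76.0, and precursor markers at 4.0 and 16.6.

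The summed heavy chains, outer and inner, were higher in the adult cells, at 16.7 and 7.54 (2.22, 1.73 to 2.89). The sums of docking and assembly genes were lower. The median log2 ratio was -0.58 over docking and ruler genes and -0.39 over all measured genes. As the minimum favours genes with P4 counts, both medians are descriptions and no support. Outer arm heavy chains summed to 6.86 in the adult cells and 2.90 at P4 (2.37, 1.58 to 3.69), and inner arm chains to 14.0 and 6.03 (2.32, 1.75 to 3.12). Intermediate and light chains of the outer arm summed to 4.66 and 3.36 (1.38, 0.945 to 2.10). Docking and ruler genes summed to 5.64 and 7.54 (0.748, 0.574 to 0.988), and assembly factors to 4.64 and 7.89 (0.588, 0.452 to 0.776). Single genes weighed heavily in these sums. Without Zmynd10, the assembly factors had 3.03 and 2.55 (1.19, 0.765 to 1.94), and without Dnah5, the outer arm heavy chains had 1.65 and 1.39 (1.19, 0.654 to 2.36).

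Zmynd10 stood at 1.61 per 10000 in the adult cells and 5.34 at P4 (0.301, 0.212 to 0.435). It had a UMI in 36.4% of adult cells and in each of the 6 P4 cells, and without the P4 cell of the most markers the ratio was 0.288. Dnah5 stood at 5.21 and 1.51 (3.46, 2.0 to 6.55), and without that cell the ratio was 8.02. Dnali1 stood at 4.10 and 1.39 (2.95, 1.66 to 5.77) and Dnah12 at 4.60 and 2.09 (2.20, 1.37 to 3.76). Dnah6 had 1.79 and 0.348 (5.15, 1.72 to 25.3), with 3 P4 counts in 1 cell, and Dnah3 and Dnah7c were called with 2 and 1 P4 counts and intervals that held 1. Ccdc151 stood at 0.797 and 1.74 (0.458, 0.256 to 0.872), and at a ratio of 0.558 without that cell it was not called.

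Several members stood close together at the 2 ages. Dynlrb2 had 17.3 and 14.4 (1.21, 1.0 to 1.46), Dynlrb1 2.90 and 2.67 (1.09, 0.706 to 1.76), Dnaic2 1.78 and 1.51 (1.18, 0.666 to 2.28) and Dnaaf1 0.840 and 0.812 (1.03, 0.472 to 2.68). Dynll1 had 32.9 and 20.2 (1.63, 1.39 to 1.91). Dynlt1a was higher in the adult cells (2.22) and Dynlt1b lower (0.115, 0.0668 to 0.197), but the tables do not list the same copies. Their sum over the 4 genes of both tables was 14.9 and 14.7 (1.01, 0.841 to 1.23). This sum leaves out Dynlt1-ps1, which only the P4 table lists and which had 33 counts in the 6 P4 cells. All its last words are shared with a Dynlt1 copy, so the P4 sum may lack counts of these copies. The other measured members had ratios from 0.508 (Ccdc114) to 1.98 (Dynlt1f), all under 2-fold. Among docking and ruler genes these were 0.644 for Ttc25, 0.668 for Ccdc103, 0.725 for Ccdc40, 0.900 for Armc4 and 1.51 for Ccdc39. Among assembly factors they were 0.818 for Dnaaf2, 1.29 for Dnaaf3, 1.32 for Lrrc6 and 1.72 for Dnaaf5. Among heavy chains they were 0.890 for Dnah1, 1.78 for Dnah2, 1.28 for Dnah7a, 1.84 for Dnah7b, 1.09 for Dnah9, 1.10 for Dnah10 and 1.35 for Dnah11. Among the smaller chains they were 1.41 for Dnaic1, 1.31 for Dnal1, 1.69 for Dnal4, 1.6 for Dynll2, 0.765 for Dynlt1c and 0.878 for Dynlt3. Dnah8, Dnah14, Dnah17 and Dnah2os were not measured.

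**Figure D5:**
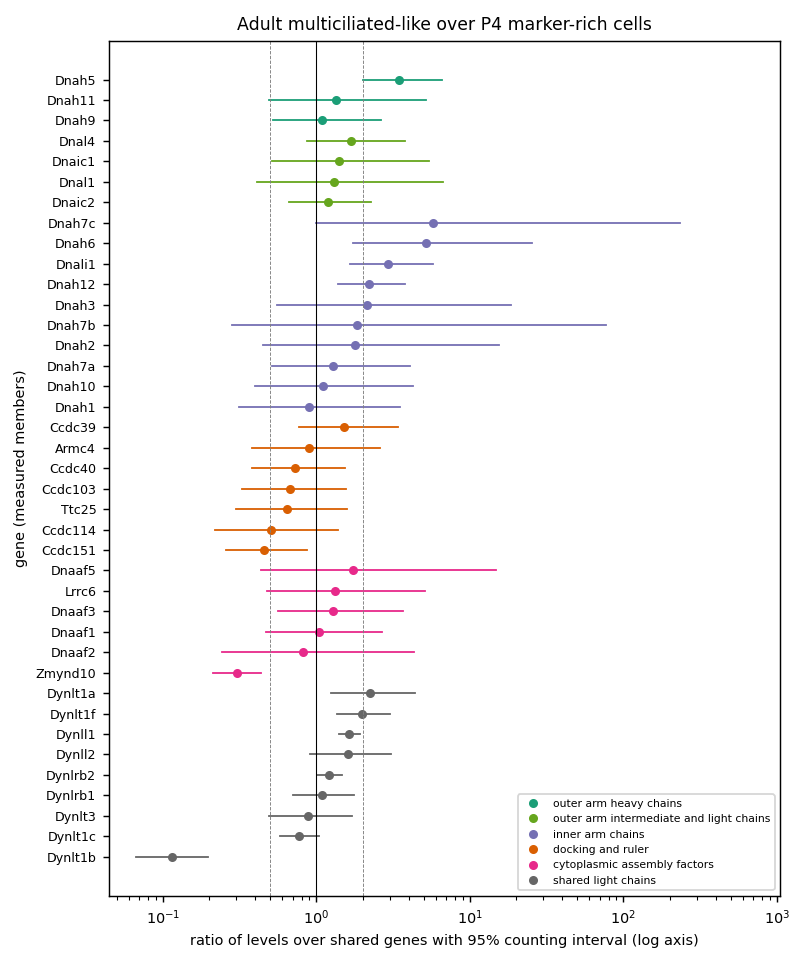
Ratio of levels in adult multiciliated-like cells over the 6 P4 marker-rich cells (log axis) for the 39 measured members, coloured by role, with 95% counting intervals; dashed lines mark 2-fold. Dnah5 at 3.46 and Dnali1 at 2.95 lie to the right, and Zmynd10 at 0.301 and Dynlt1b at 0.115 to the left.

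Of the other dynein genes, the 5 dynein 2 genes and 8 nexin-dynein genes were all within 2-fold between the ages. Of 13 cytoplasmic dynein genes, Ndel1 and Dctn1 were higher in the adult cells, with 2 and 1 P4 counts, and Dync1h1 was lower (0.427 and 0.928). Of 10 measured further assembly genes, 5 were lower in the adult cells and 2 higher, against 34.9% and 14.0% of all measured genes. Ruvbl2 stood at 1.81 and 4.29 (0.421, 0.290 to 0.625) and Ruvbl1 at 1.20 and 3.36 (0.355, 0.231 to 0.563). Dyx1c1 stood at 0.413 and 0.928 (0.445, 0.198 to 1.13), and Pih1d2 at 1.59 and 0.696 (2.29, 1.02 to 6.38). Thinned to 1000 UMI, the split of member calls turned from 7 higher and 3 lower to 1 higher and 9 lower, against 4.60% and 53.4% of the genes measured then. There Dynlrb2 was the higher one, and Zmynd10, Ccdc151 and Dynlt1b were among the lower. With a pseudocount of 0.5 the split was 3 and 2, against 4.87% and 4.79%.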

How the data were processed

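Cells were dissociated with enzymes and sorted, and libraries were made with 10x Chromium 3' V2 chemistry, per the labels' protocols. Cell Ranger, Seurat 2.3.4 and build mm10 stand in the submitters' processing notes, with no role and, for Cell Ranger, no version. The authors deposited raw counts (UMI per gene and cell, checked to be whole numbers) and a cluster number per cell. The annotation and the use of strand in counting are not given in the sources used here. The adult table holds 807 columns under a pair of prefixes, with 401 of its 406 barcodes under both. Each barcode was used once, from the first prefix. Totals were 1401641 UMI (502 to 16207 per cell) and 2123202 UMI (1331 to 23372 per cell). In comparisons between ages, 1.79% of adult and 13.4% of P4 UMI, of genes in 1 table only, were left out. Scripts in Python 3.11.15 (numpy 2.4.6, pandas 2.3.3, scipy 1.17.1) pooled the counts and were tested on simulated data. The members and lists were chosen with earlier results of these data known. Members with at least 20 counts on the higher side of a comparison are named with values. Other dynein genes are named when called with 20 counts or more, at most 6 per list. Positions of genes are those of GENCODE M21 (GRCm38), and promoters from RefSeq on GRCm38.p6. Alternatives were 2 pseudocounts (0.1 and 0.5), no filter or 25% of cells, a mean over cells, thinning to 1000 UMI, leaving out the deepest 5% of cells, the other prefix, other clusters and marker thresholds of 20 and 40. Leaving out the P4 cell with the most markers, and summing copies, were added after seeing the data.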

Additional observations from a re-analysis of the deposited data

How the results depend on the processing

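The counts of called members depended on the treatment of low counts. They are given here without the share of all genes at each setting, so they describe the settings and not the members. Adult multiciliated-like against secretory-like cells gave 34 calls, 14 with a minimum of 25% of cells and 16 with cells thinned to 1000 UMI. Cluster 3 against cluster 1 gave 14, and 6, 8 and 8 with a pseudocount of 0.5, a minimum of 25% of cells and thinning. P4 cluster 0 against cluster 1 gave 4, then 2 and 1 with pseudocounts of 0.1 and 0.5, 1 with 25% of cells, 15 with no filter, 0 with thinning and 2 without the marker-rich cells. Thinning also put the ratio of Dnal4 there at 0.565, from 2.10. Without the deepest 5% of cells the ratio of Zmynd10 there was 1.26, from 4.02. The P4 marker-rich cells against other P4 cells gave 38, then 21 with a pseudocount of 0.5 and 20 with thinning. The comparison of ages gave 10, and 5 with a pseudocount of 0.5. Fewer genes pass the filters with thinning or with 25% of cells, and a pseudocount shrinks ratios of low genes; other causes were not tested. With the other prefix, the adult ratios of Dnah9, Zmynd10 and Dnah12 to secretory-like cells were 19.8, 30 and 130, from 56.9, 90.6 and 259, each of which rests on 1 secretory-like count. The remaining alternatives left each total count of calls within 1.5 times. Thinning left the total of the age comparison at 10 but turned its split from 7 higher and 3 lower to 1 and 9. With 1 library per age, no replicate could be left out. No paired analysis was possible because each age has 1 library. Depth limits most members: 3 counts equal 0.0523 per 10000 in the adult secretory-like cells and 0.309 in the 6 P4 cells.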
